A study of Mus musculus with 4 samples.

Results

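The genes described here are the Trim (tripartite motif) genes, taken as all gene symbols made of Trim, digits and at most 1 further letter. The rule found 57 of the 33114 named genes measured. All 57 had an Entrez identifier that RefSeq still lists, and for 3 of them the current symbol differs (Trim12 is now Trim12a, Trim30 is Trim30a and Trim34 is Trim34a). RNA-seq was done on polyadenylated RNA of flow-sorted thymocytes from C57BL/6 (B6) mice aged 4 and 7 weeks and from NOD mice, an inbred strain prone to autoimmune diabetes, aged 4 and 6.5 weeks. All 4 groups were labelled Rag1-/-. Rag1 encodes a subunit of the enzyme that recombines antigen receptor loci, and thymocytes without it stop short of the double positive stage at which CD4 and CD8 appear. Rag1 RNA was present at 132.9, 108.0, 121.4 and 91.7 RPKM (B6, then NOD, week 4 first). The deleted part of Rag1 was not given in the sources used here, so its RNA is no check of the genotype. The series asks how early T-cell development fails and leukaemia begins in the NOD background. Each strain and age had 1 library. The sort markers were not given in the sources used here, nor whether a library held 1 animal or several.

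TRIM proteins share a RING finger, B-box zinc fingers and a coiled coil, and most act as ubiquitin ligases whose partner is chosen by the carboxy-terminal part. Those ending in a SPRY domain include sensors and restriction factors of viruses, and many of their genes are induced by interferon. Members of the TIF1 class instead carry a PHD finger and a bromodomain and act on chromatin, and others organise the cytoskeleton or work in muscle.

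Levels are given as RPKM, which divides the reads of a gene by its length in kilobases and by the depth of the library, as the authors deposited them. Depth, recovered from these values, was 17045000 reads at week 4 and 21205000 at week 7 in B6, and 17275000 at week 4 and 24055000 at week 6.5 in NOD, so that 3 reads on a 1-kilobase gene correspond to RPKM between 0.125 and 0.176. The NOD week 6.5 library stood apart in its deposited share of reads that map to more than 1 place: 3.84% of the genes tested had no such read there, against 55.8% to 56.6% in the other libraries. For 15 of the 30 Trim genes tested that share was 0 in the other 3 libraries and above 0 in that one, as it was for 18 of all 57. B6 week 7 also stood apart, with a median change of -0.38 (log2 of RPKM + 1) from B6 week 4 over all genes with RPKM of 5 or more. The libraries had the markers of immature thymocytes, with Il2ra between 422.4 and 531.1 RPKM and Cd8a at 0.16 or less. Cd4 was at 1.25 and 0.63 RPKM in B6 and at 1.46 and 2.78 in NOD, week 4 first in each strain. Among other markers, B cell genes summed to 0.40 or less in every library, with Ms4a1 and Pax5 at 0. The 5 NK cell markers summed to 58.5 and 46.9 in B6 and to 32.8 and 34.7 in NOD, nearly all of it Nkg7, while Ncr1, Klrb1c, Klrd1 and Eomes were each at 0.45 or less. Erythroid markers summed to 41.2 and 43.3 at week 4 and to 11.5 and 6.22 at the later ages of B6 and NOD, nearly all of it Hba-a1 and Hbb-b1. Myeloid markers summed to between 24.4 and 29.2, most of it Lyz2, at 21.3 to 25.8. Cd68 was at 1.74 to 2.57, and Lyz1, Csf1r, Itgam and Adgre1 were each at 0.53 or less. Thymic stroma markers summed to 34.55 and 24.25 in B6 and to 26.92 and 13.35 in NOD, nearly all of it Epcam. The part of these other cells in the values of Trim genes was not tested. Fewer cells of a type and less RNA per cell cannot be told apart in these bulk samples.

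Of the 57 Trim genes, 26 had RPKM of 1 or more in all 4 libraries and 13 had 10 or more in all 4. In contrast, 25 were under 1 in every library, 9 of them listed at 0 throughout. The 9 were Trim31, Trim38, Trim40, Trim42, Trim52, Trim54, Trim60, Trim67 and Trim71, of which Trim54 is a muscle gene and Trim71 an NHL-repeat gene of early embryos. In all, 30 Trim genes reached RPKM of 1 in at least 2 libraries and entered the test between strains, and 27 did not, 18 of these with some reads. Trim12 passed this filter only through B6 and Trim3 only through NOD, so both had to differ between the strains. Summed over all Trim genes, RPKM came to 559.3 and 400.6 for B6 at weeks 4 and 7 and to 567.8 and 523.7 for NOD at weeks 4 and 6.5, and 4 values in a row are given below in this order.

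**Figure D1:**
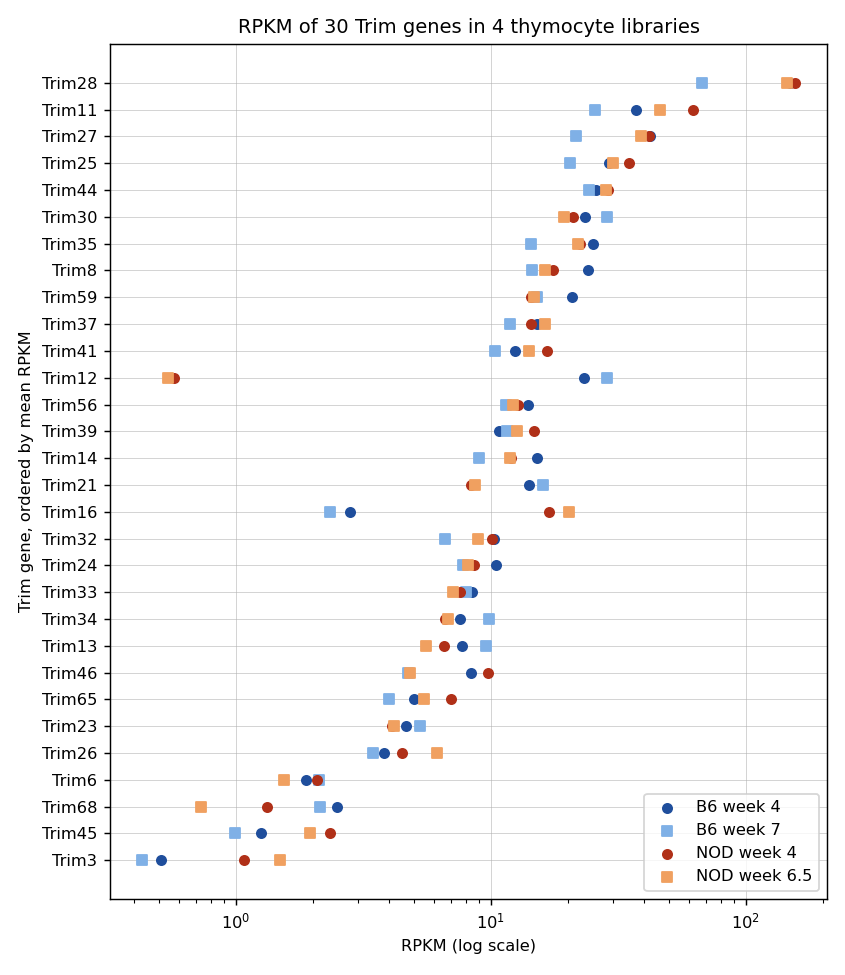
RPKM (log axis) of the 30 tested Trim genes, 1 point per library, ordered by mean RPKM over the 4 libraries. Trim28 leads at 67.2 to 155.5, and Trim12 and Trim16 show the widest gaps between the points of B6 and those of NOD.

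Trim28, the corepressor that KRAB zinc finger proteins recruit to silence retroelements, was the most abundant Trim RNA. It was at 149.2, 67.2, 155.5 and 144.7 RPKM, so B6 week 7 was low and the other 3 libraries were close together. It made up 26.7%, 16.8%, 27.4% and 27.6% of the summed Trim RPKM. The strain difference of Trim28 was 0.58 on the log2 scale (SE 0.38) and did not pass limma's test across all genes (adjusted p = 0.612). Its TIF1-class relatives were lower: Trim24, a nuclear receptor cofactor, was at 10.5, 7.77, 8.58 and 8.11, and Trim33, which acts in transforming growth factor beta signalling, at 8.41, 8.01, 7.57 and 7.10 RPKM. Trim66, the fourth TIF1 gene, stayed at 0.21 or less. Of the 8 listed partners of Trim28 in silencing, 7 were tested and 0 passed limma's test between strains, 0 of them at an unadjusted p under 0.05. Over all genes tested, 4.37% passed and 12.7% were under that unadjusted p. Among them Setdb1, the histone methyltransferase of the complex, was at 19.3, 15.5, 19.2 and 18.9 RPKM and Chd4, a helicase of the NuRD complex, at 106.0, 61.3, 111.3 and 107.1. In both, B6 week 7 was lowest, as in Trim28. It was also lowest in the heterochromatin protein Cbx1, at 63.44, 53.65, 65.76 and 67.02, and in Atf7ip and Chd3. It was not lowest in the heterochromatin proteins Cbx3, at 83.3, 84.5, 64.5 and 67.7, and Cbx5, at 34.3, 34.7, 38.3 and 38.7. In Cbx3 as much as 97% of the reads mapped to more than 1 place.

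Below Trim28 in mean RPKM came Trim11, Trim27, Trim25, Trim44, Trim30, Trim35, Trim8, Trim59 and Trim37. Trim11, a SPRY protein that targets other proteins for degradation, was at 37.2 and 25.6 RPKM in B6 and at 61.8 and 45.9 in NOD (week 4 first in each strain), and both NOD values lay above both B6 values. Trim27, a SPRY ligase first found as the RET finger protein, was at 42.0, 21.6, 41.5 and 38.8, with only B6 week 7 apart. Trim25, the ligase that activates the RNA sensor RIG-I, was at 28.9, 20.4, 34.7 and 30.2 RPKM, and Trim44, which lacks a RING finger, at 25.9, 24.2, 28.8 and 28.2. For both, the NOD values lay above the B6 values, by margins smaller than the spread within a strain in Trim25. Trim35 was at 25.2, 14.4, 22.4 and 21.9 and Trim8, a regulator of cytokine signalling, at 24.1, 14.5, 17.5 and 16.3. Trim59 was at 20.9, 15.2, 14.4 and 14.7 and Trim37, a ligase that limits centrosome assembly, at 15.2, 11.9, 14.3 and 16.3 RPKM. In these 4 genes the strains overlapped or differed by less than 2-fold. None of the 9 genes in this paragraph passed limma's test between strains, the nearest being Trim11 with a log2 difference of 0.77 (SE 0.28, adjusted p = 0.291).

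Between strains, 2 of the 30 tested Trim genes passed limma's test at an adjusted p under 0.05 (6.67%), against 4.37% of all 12413 genes tested. Trim16 rose in NOD, where 2.78% of all genes did, and Trim12 fell, where 1.59% of all genes did. Without the B6 week 4 library limma called 6 Trim genes higher (Trim11, Trim16, Trim25, Trim27, Trim28 and Trim35) and 3 lower (Trim12, Trim21 and Trim30), in a setting in which 2919 of all genes (23.5%) were called higher and 452 (3.64%) lower. With age class as a block it called 2 higher (Trim3 and Trim16) and 3 lower (Trim12, Trim21 and Trim68), where 665 of all genes (5.36%) were called higher and 340 (2.74%) lower. At an unadjusted p under 0.05 there were 7 Trim genes (23.3%), against 12.7% of all genes. In 19 of the 30 (63.3%, against 43.9% of all genes) both NOD values lay on 1 side of both B6 values: 10 above (33.3%, against 25.3%) and 9 below (30%, against 18.7%). In RPKM + 1 the separation was 2-fold or more in 1 of 30 upward (Trim16, 1.84% of all genes) and 1 of 30 downward (Trim12, 0.935% of all genes). Trim12 passed the filter only through B6 and Trim3 only through NOD. Both had to differ, so the counts in this paragraph that hold them are in part fixed by the filter. The median strain difference of the tested Trim genes was 0.14 on the log2 scale and that of all tested genes 0.10. Libraries of a strain differed in age, so p-values measure the spread between these 4 samples.

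Trim16, a SPRY protein without a RING finger that is known for its part in the response to protein aggregates and damaged lysosomes, was at 2.81 and 2.33 RPKM in B6 and at 16.9 and 20.3 in NOD. Both NOD libraries were high, both B6 libraries were low, and the gap between strains was wider than the spread within either. B6 averaged 2.57 ± 0.34 RPKM and NOD 18.6 ± 2.45 (SD, n = 2 each), a log2 difference of 2.45 (SE 0.21, limma adjusted p = 0.000952). This difference was known before the test was chosen. At week 4 the ratio of NOD to B6 was 5.98 (95% exact interval 5.12 to 7.02, from 1134 and 187 reads) and at the later age 8.74 (7.53 to 10.2, from 1904 and 192 reads). Amplified reads are not separate molecules, so such intervals hold for counting error alone. Shared reads played a small part in Trim16: their deposited share was 0% in 3 libraries and 2% in NOD week 6.5, and 0% of its 32-base transcript windows occurred in another gene. Over the alternative settings the log2 difference ranged from 1.64 to 2.81 and limma's adjusted p from 2.04e-20 to 0.1025, the latter with no filter on low values, where the call was lost.

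Trim12 was at 23.1 and 28.5 RPKM in B6 and at 0.57 and 0.54 in NOD. It was among the more abundant Trim RNAs in B6, and in NOD it rested on 15 and 20 reads. B6 averaged 25.8 ± 3.80 RPKM and NOD 0.555 ± 0.021 (SD, n = 2 each), a log2 difference of -4.10 on the scale of RPKM + 1 (SE 0.20, limma adjusted p = 0.000124). Trim12 passed the filter only through B6 and so had to differ, and its difference was known before the test was chosen. The ratio of NOD to B6 was 0.0246 at week 4 (95% exact interval 0.0137 to 0.041, from 15 and 601 reads) and 0.0191 at the later age (0.0116 to 0.0297, from 20 and 922 reads). Over the alternative settings the log2 difference ranged from -5.30 to -2.47, the smallest with a pseudocount of 5, and limma's adjusted p from 2.96e-60 to 0.0314. A large part of its reads was shared with other genes: the deposited share was 42% and 41% for B6 but 94% and 100% for NOD. Reads placed only at Trim12 therefore numbered 349 and 544 in B6, but 1 and 0 in NOD. Relative to depth, and with the libraries of a strain summed, these single-place reads were 965-fold more frequent in B6 than in NOD (95% exact interval 173 to 38150). That interval holds for counting error alone. The NOD counts come from shares rounded to the percent, on 15 and 20 reads, and the 100% from the library whose shares stood apart. NOD reads were also placed on B6 sequence, and the effect of strain variants on these counts was not tested.

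**Figure D2:**
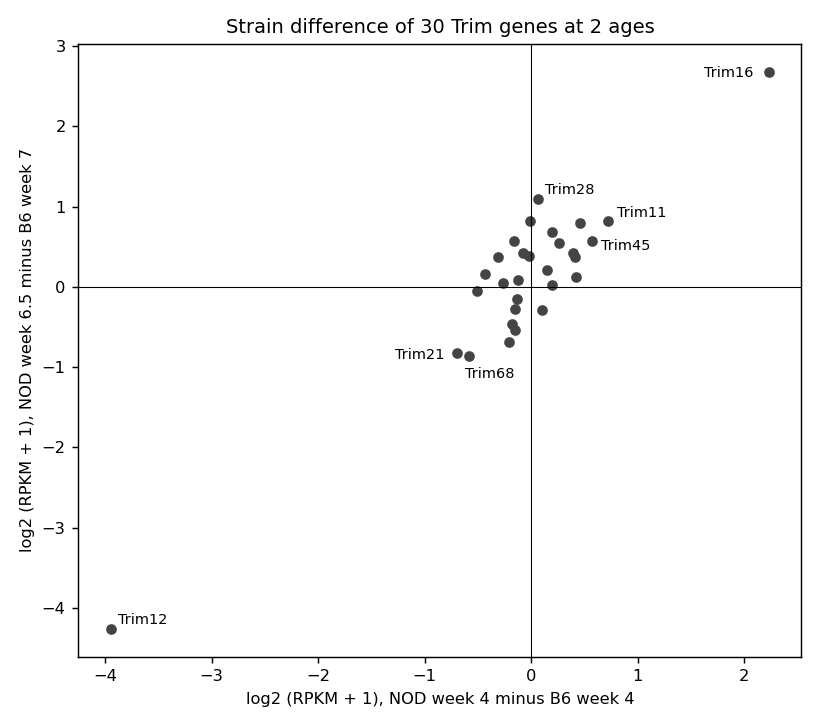
Difference in log2(RPKM + 1) between NOD and B6 for the 30 tested Trim genes, at week 4 (horizontal axis) and at the later age (vertical axis), 1 point per gene. Trim12 lies at -3.94 and -4.26 and Trim16 at 2.23 and 2.68, outside the cloud of the other genes, whose values run up to 1.10 (Trim28, later age).

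Trim12 and its neighbours encode relatives of the TRIM5 of primates, a SPRY protein that restricts retroviruses, and form an array of near copies on chromosome 7. In RefSeq (assembly GRCm38.p6) the order is Trim6, Trim34a, Trim5, Trim12a, Trim34b, Trim12c, Trim30b, Trim30c, Trim30a and Trim30d. The files listed 9 of these 10 genes, 4 under Trim symbols and 5 under older names, which were matched by Entrez identifier, and Trim34b was not analysed here. A pair of stretches of 32 bases, the length of a read here, shows how far a read can tell Trim12a from Trim12c, the copy with which it aligned over 852 coding bases at 94.1% identity. These 852 bases were the whole coding sequence of Trim12a, whereas that of Trim12c had 1491. Positions are counted from the first base of the coding sequence of the GENCODE vM21 transcripts, in which the longest identical run was 80 bases (379 to 458). At 403 to 434 both genes read the same:
Trim12a and Trim12c: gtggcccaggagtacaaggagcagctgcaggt
At 130 to 161 they differed most, at 4 bases, which are in capitals:
Trim12a: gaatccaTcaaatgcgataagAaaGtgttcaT
Trim12c: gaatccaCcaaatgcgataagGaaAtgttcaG
Of the 32-base windows of the Trim12a transcript 32.7% occurred in another gene, 26.2% in Trim5 and 17.7% in Trim12c.

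The other members of the array were read in this light. Trim12c (listed as 9230105E10Rik) was at 11.5 and 17.9 RPKM in B6 and at 5.43 and 5.6 in NOD, with 47% to 55% shared reads, and fell in NOD by 1.24 on the log2 scale (limma adjusted p = 0.0385). This call was lost without NOD week 4 (limma adjusted p = 0.194), without NOD week 6.5 (0.155), after median-ratio scaling (0.0503) or quantile normalization (0.0506), at RPKM of 5 or more in 2 libraries (0.0555) and with no filter (0.395), and the alternatives ranged from 4.11e-05 to 0.395. Trim30c (EG434219) was at 2.83 and 3.02 in B6 and at 0.33 and 0.61 in NOD, with 6% to 17% shared reads, and fell by 1.42 (limma adjusted p = 0.00503), with alternatives from 1.24e-09 to 0.239, the latter with no filter on low values. Like Trim12, it passed the filter only through B6 and so had to differ between the strains. Trim5 (EG667823) was at 2.59 and 4.30 in B6 and at 4.31 and 4.06 in NOD, so it overlapped between strains (log2 difference 0.25, limma adjusted p = 0.718), with 71% to 82% shared reads. Its reads cannot be fully separated from those of Trim12a, so the 3 genes were also summed: together they had 73.2 and 103.4 RPM (RPKM without the division by length) in B6 and 29.95 and 29.4 RPM in NOD. The sum was thus lower in both NOD libraries whichever way shared reads were divided among the 3, and the single-place reads of the 3 were also lower, at 37.0 and 52.9 RPM against 11.2 and 10.5 RPM. Trim5 by itself went the other way in single-place reads, at 0.466 and 1.03 RPKM in B6 and 1.25 and 1.18 in NOD. The choice to sum them was made after the values were seen.

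Trim30, an interferon-induced inhibitor of Toll-like receptor signalling and the most abundant gene of the array in NOD, was at 23.4 and 28.6 RPKM in B6 and at 21.0 and 19.4 in NOD. Both NOD values lay below both B6 values, by less than the spread within B6, and the log2 difference of -0.34 (SE 0.22) did not pass limma's test (adjusted p = 0.604). Its neighbour Trim30d (AI451617) was at 5.73 and 6.95 against 4.41 and 4.19, and Trim30b (A530023O14Rik) rested on 2 to 11 reads. Trim34 was at 7.60 and 9.80 in B6 and at 6.59 and 6.81 in NOD, and nearly all of its reads were shared: 100% in both B6 libraries, 90% in NOD week 4 and 92% in NOD week 6.5. Its single-place reads numbered 0 and 0 in B6 but 25 and 29 in NOD, so the strain with the lower total had the only reads placed at Trim34 alone. Of its transcript windows 62.8% occurred in Trim34b, so a level of Trim34 apart from Trim34b cannot be read from these values. Trim6, at the end of the array, was at 1.88 and 2.12 against 2.08 and 1.55, with 7% shared reads at most, and the strains overlapped. In 7 of the 9 listed genes both NOD values lay below both B6 values (18.7% of all genes tested), and in 6 of 9 by single-place reads (also 18.7% of all genes tested). Both counts hold Trim30b, which did not pass the filter, so they are not on the same footing as that share. Limma called 3 of the 8 tested genes lower, against 1.59% of all genes, and 0 higher. Trim12a and Trim30c, 2 of the 3 called and part of each count, passed the filter only through B6. The counts are thus in part fixed by it. Their median log2 difference was -0.40, against 0.10 over all genes tested, but members of the array share reads and are not independent of each other.

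**Figure D3:**
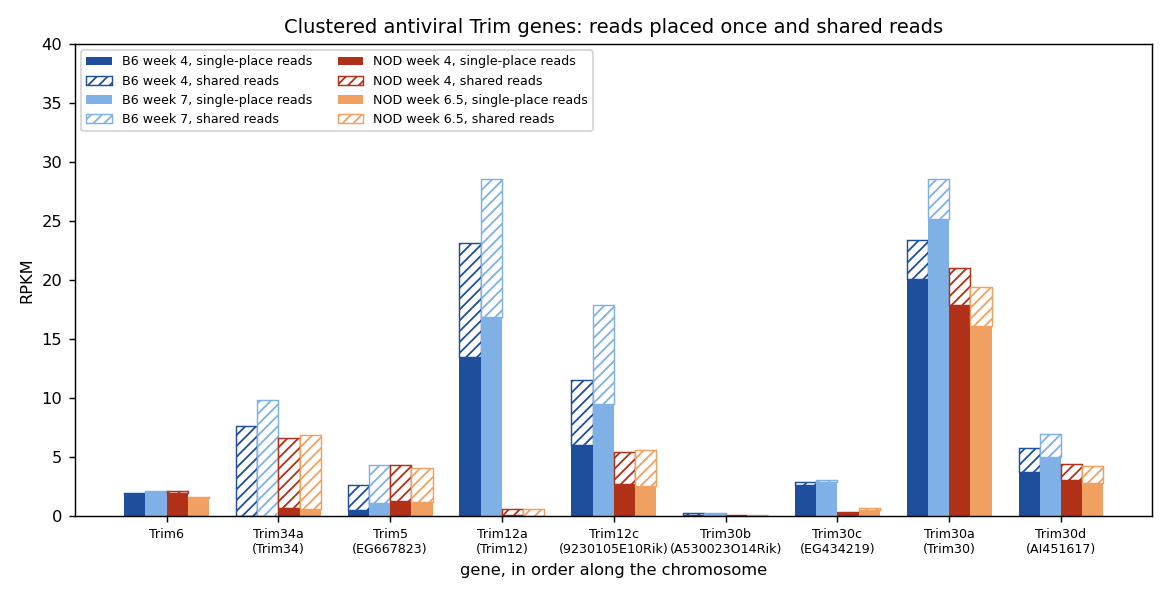
RPKM of the 9 listed genes of the array, in their order along the chromosome, with 1 bar per library split into reads placed once (filled) and shared reads (hatched). Trim12a stands at 23.1 and 28.5 in B6 and has almost no filled part in NOD, whereas Trim34a is almost wholly hatched in all 4 libraries.

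Outside the array, shared reads were rare among the Trim genes. Trim13, a ligase anchored in the endoplasmic reticulum, had 30% to 39% shared reads, and 29.6% of its transcript windows occurred in Gm9359, annotated as a processed pseudogene. Trim59 had 16% to 20%, and 8.96% of its windows occurred in the processed pseudogene Gm15381. The 5 tested Trim genes with 10% or more of their windows in other genes (Trim12, Trim13, Trim30, Trim34 and Trim59) were also the 5 with 10% or more shared reads in every library. In the other tested Trim genes the shares were at most 2.47% of windows and 10% of reads.

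**Figure D4:**
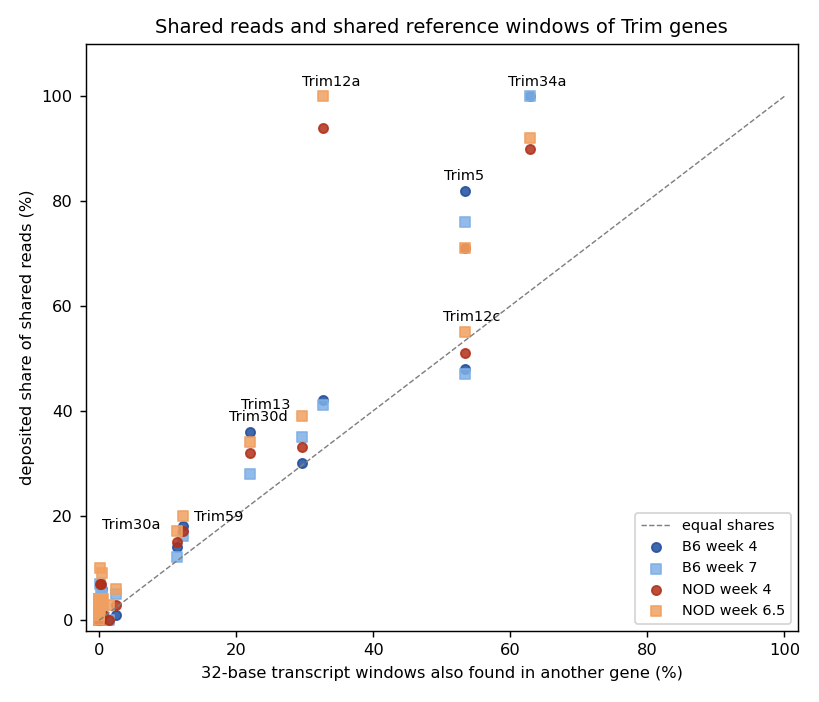
Deposited share of shared reads in each library against the share of 32-base transcript windows (GENCODE vM21) that occur in another gene, for the 30 tested Trim genes and 3 copies of the array, in percent. Most genes lie near the dashed line of equal shares, and the NOD points of Trim12a, at 94% and 100% of reads for 32.7% of windows, lie farthest above it.

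Trim21, the cytosolic antibody receptor, had the smallest adjusted p of the 28 Trim genes that did not pass. It was at 14.2 and 16.1 RPKM in B6 and at 8.33 and 8.64 in NOD, so the strains were apart by more than the spread within either (log2 difference -0.76, SE 0.20, limma adjusted p = 0.117). With age class as a block limma's adjusted p was 0.0469, and without the B6 week 4 library 0.0198, in a range from 0.0198 to 0.9999 over the alternatives. Trim68, a SPRY ligase separated from Trim21 by 7 protein-coding genes in RefSeq, was at 2.50 and 2.14 in B6 and at 1.33 and 0.73 in NOD (log2 difference -0.72, limma adjusted p = 0.140, and 0.0122 with the block, in a range from 0.0122 to 1). Trim13 also had both NOD values below B6, at 7.74 and 9.59 against 6.54 and 5.59. In the other direction Trim45 was at 1.25 and 0.99 in B6 and at 2.34 and 1.95 in NOD (log2 difference 0.57, limma adjusted p = 0.196). Trim3, an NHL-repeat ligase known from neurons, was at 0.51 and 0.43 in B6 and at 1.08 and 1.49 in NOD (log2 difference 0.63, limma adjusted p = 0.123, and 0.0282 with the block, in a range from 0.0282 to 0.555). In all 5 genes the strains did not overlap, as in 43.9% of all genes tested. Trim3 rested on 26 to 106 reads and passed the filter only through NOD, so it had to differ. It was the only one of the 5 in which every NOD value was over 2 times every B6 value in RPKM.

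By function, the 12 Trim genes listed for innate immune signalling had 10 tested members and 0 that passed limma's test, 1 of them (Trim21) at an unadjusted p under 0.05, where 4.37% of all genes passed and 12.7% were under that unadjusted p. Their median strain difference was 0.12 on the log2 scale, close to the 0.10 of all genes. Trim56 was at 14.0, 11.4, 12.7 and 12.2 RPKM and Trim14, a mitochondrial adaptor, at 15.2, 9, 12.0 and 11.9. Trim26 was at 3.81 and 3.44 in B6 and at 4.50 and 6.15 in NOD, and Trim65, a ligase of the RNA sensor MDA5, at 4.99 and 3.99 against 6.95 and 5.48, both without passing. The 16 other SPRY genes had 5 tested members, of which 1 passed (Trim16). Of the remaining groups, 3 TIF1-class genes, 5 genes with other carboxy-terminal parts, 2 NHL-repeat genes and 1 COS-box gene were tested, and 0 passed. Of the TRIM family genes under other symbols, 2 were tested and 0 passed: Pml, the core of nuclear bodies, was at 17.4, 8.28, 16.9 and 18.7 RPKM and Mid1 at 2.03, 1.61, 3.25 and 3.15. Of 20 tested genes of nucleic acid sensing and interferon signalling, 0 passed limma's test, 1 had an unadjusted p under 0.05, and the median log2 difference was 0.09. That gene was Ifih1, which encodes MDA5, at 10.9 and 9.67 in B6 and at 6.96 and 5.10 in NOD (log2 difference -0.69, limma adjusted p = 0.210).

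Because several genes of the array were low together in NOD, the promoters of Trim genes (RefSeq GRCm38.p6, from 250 bases before to 50 after a start, as given there) were searched for the letters GAAA, 2 bases of any kind and GAAA, the core of the interferon-stimulated response element, on both strands. Of the 57 genes 44 had an entry, with 58 windows, and 7 windows (12.1%) held the letters, against 3.44% of all 32851 promoter windows. The 6 genes were Trim2, Trim12, Trim21, Trim26, Trim30 and Trim34, and of the copies in the array Trim5, Trim12c and Trim30d held them as well. Trim30 held the letters in 2 windows, and Trim12, Trim30 and Trim34 are in the array. The windows are thus not independent of each other. Trim30c, which was also called lower in NOD, had 0 matches of these letters in its window. Trim12a and Trim12c are shown as the near copies that both fell in NOD, and Trim21 because its window held the letters 2 times, in overlap. Capitals mark the matches, and each sequence runs along its gene's strand, the minus strand:
Trim12a, chr7:104315446-104315745: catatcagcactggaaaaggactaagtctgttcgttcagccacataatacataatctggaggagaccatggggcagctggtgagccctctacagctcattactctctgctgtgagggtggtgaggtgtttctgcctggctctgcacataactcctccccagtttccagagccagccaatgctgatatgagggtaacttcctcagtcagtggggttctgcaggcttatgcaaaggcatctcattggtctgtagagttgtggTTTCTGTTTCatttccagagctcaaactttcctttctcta
Trim12c, chr7:104353300-104353599: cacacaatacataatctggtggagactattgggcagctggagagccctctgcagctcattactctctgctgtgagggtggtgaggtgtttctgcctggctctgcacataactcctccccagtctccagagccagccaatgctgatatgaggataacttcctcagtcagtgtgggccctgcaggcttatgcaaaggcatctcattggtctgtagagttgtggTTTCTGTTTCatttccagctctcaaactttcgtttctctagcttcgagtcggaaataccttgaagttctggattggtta
Trim21, chr7:102565433-102565732: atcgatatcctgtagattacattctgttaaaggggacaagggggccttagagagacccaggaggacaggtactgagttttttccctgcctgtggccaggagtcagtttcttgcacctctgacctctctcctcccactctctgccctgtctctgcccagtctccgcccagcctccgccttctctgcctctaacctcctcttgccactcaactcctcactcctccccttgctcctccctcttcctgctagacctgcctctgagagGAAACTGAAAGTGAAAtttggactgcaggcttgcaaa
The Trim12a and Trim12c windows were identical at 95% of 260 aligned bases. The Trim12a and Trim5 windows were identical at all of 241 aligned bases. Trim12a fell in NOD, and Trim5, with 71% to 82% shared reads, did not pass the test. These are reference windows, and the promoter sequence of NOD was not examined. Any part of the promoters in the strain differences was not tested. The letters TTC, 3 bases of any kind and GAA, the core of the gamma-activated site, were in 8.30% of all windows and in those of 5 Trim genes (Trim15, Trim31, Trim38, Trim45 and Trim46) and of Trim30c. Windows of Trim genes with these letters were not counted, so the 5 genes cannot be set against that share. A match is a description of the reference sequence and not of binding.

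Each comparison of 2 single libraries had no replicate check, and a gene was counted where 1 of the 2 libraries or both had RPKM of 5 or more, with 2-fold taken on the scale of RPKM + 1. At week 4, 1 of 24 Trim genes was 2-fold higher in NOD (Trim16, against 2.23% of all genes) and 1 was 2-fold lower (Trim12, against 2.04%). At the later age 2 of 25 were 2-fold higher (Trim16 and Trim28, against 5.91% of all genes) and 1 was 2-fold lower (Trim12, against 1.61%). After median-ratio scaling of the libraries the later age had 1 of 26 higher (Trim16, against 3.37% of all genes) and 2 lower (Trim12 and Trim21, against 2.5%), and week 4 again had 1 higher (Trim16, 2.36% of all genes) and 1 lower (Trim12, 1.82%). Of the 30 tested genes, 12 were higher in NOD at both ages, 9 were lower at both and 9 had opposite signs. The same count was not made over all genes, so whether these numbers are usual cannot be said. The median difference of all genes with RPKM of 5 or more was -0.07 at week 4 and 0.28 at the later age.

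Within B6, 0 of 23 Trim genes were 2-fold higher at week 7 than at week 4 (0.14% of all genes) and 1 was 2-fold lower (3.82% of all genes). That gene was Trim28, with a ratio of 0.451 (95% exact interval 0.434 to 0.467), and after median-ratio scaling 0 were 2-fold higher (0.73% of all genes) and 0 lower (0.695%). The median of the Trim genes was -0.33, near the -0.38 of all genes. Against this background, the counting interval of the ratio lay above 1 in 5 tested genes, Trim12, Trim13, Trim21, Trim30 and Trim34 (16.7%, against 7.83% of all genes), and below 1 in 16 (53.3%, against 58.9%). Trim30, for instance, had a ratio of 1.22 (1.14 to 1.31) and Trim12 one of 1.23 (1.11 to 1.37). Within NOD, 0 of 24 Trim genes were 2-fold higher (0.682% of all genes) and 0 were 2-fold lower (0.139%), and after scaling there were likewise 0 (0.727% and 0.141% of all genes). The interval lay above 1 in 3 genes, Trim16, Trim26 and Trim37 (10%, against 12.4% of all genes), and below 1 in 12 (40%, against 25.4%). Trim46, which bundles microtubules in axons, was lower at the later age in both strains, at 8.34 and 4.74 RPKM in B6 (ratio 0.568, 0.501 to 0.644) and at 9.72 and 4.82 in NOD (ratio 0.496, 0.442 to 0.557). Trim46 had the lowest such ratio in NOD among the 30 tested Trim genes, and in RPKM, without the added 1, it was past 2-fold.

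**Figure D5:**
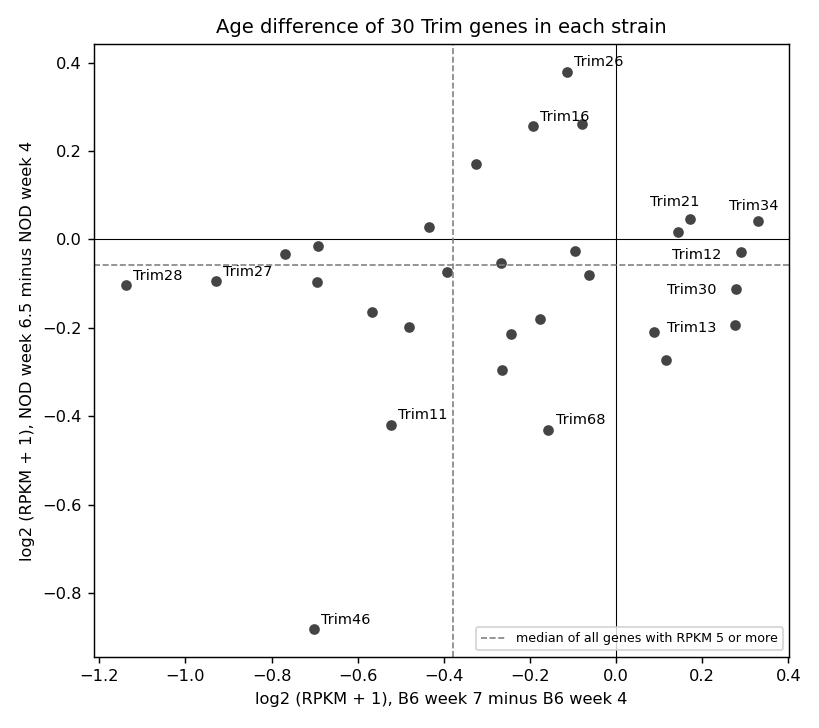
Difference in log2(RPKM + 1) between the later age and week 4 for the 30 tested Trim genes, in B6 (horizontal axis) and NOD (vertical axis), with dashed lines at the medians of all genes, -0.38 and -0.06. Trim28 lies farthest left at -1.14 and Trim46 lowest at -0.88, and Trim12, Trim13, Trim21, Trim30 and Trim34 lie on the right.

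Some Trim genes below the filter still differed between libraries by more than counting error, and those named here were chosen after their values were seen. Trim58, a ligase of maturing red cells, was at 0, 0.15, 0.13 and 1.67 RPKM, so 1 library held most of its reads. Its ratio of NOD week 6.5 to NOD week 4 was 12.6 (95% exact interval 5.22 to 39.9, from 88 and 5 reads). In NOD at weeks 4 and 6.5 the erythroid markers summed to 43.3 and 6.22, nearly all of it Hba-a1 and Hbb-b1, and Epor was at 0.16 and 0.27. The source of the Trim58 reads was not tested. Trim36, a microtubule-associated ligase, was at 0.08 and 0.05 RPKM in B6 and at 0.31 and 0.39 in NOD, with ratios of 4.14 (1.52 to 14.1) at week 4 and 8.15 (2.93 to 31.5) at the later age. Trim17 was at 0.59, 1.54, 0.72 and 0.42, highest in B6 week 7. The muscle genes Trim54, Trim55, Trim63 and Trim72 were at 0.15 or less in every library.

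Adjacent Trim genes outside the array differed in level. On chromosome 17, in the major histocompatibility complex, RefSeq places Trim26, Trim15, Trim10, Trim40 and Trim31 next to each other, and Trim39 is 9 protein-coding genes away. Of these, Trim39 was at 10.8, 11.5, 14.8 and 12.7 RPKM and Trim26 at 3.44 to 6.15, whereas Trim10, Trim15, Trim31 and Trim40 were at 0.10 or less. On chromosome 11 Trim41, at 12.4, 10.4, 16.6 and 14.2, adjoins Trim7, at 0.07 or less, and Trim65 adjoins Trim47, at 0.29 or less.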

How the data were processed

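Polyadenylated RNA of flow-sorted thymocytes was sequenced in 4 libraries, with no strand-specific step in the labels' protocols, so antisense reads could not be separated. Alignment was by Bowtie 0.12.1 to build mm9, the C57BL/6J sequence, per the submitters' processing notes. NOD reads were thus placed on B6 sequence, and the effect of strain variants on placement was not tested. The deposited tables hold, per the file headers, the length of each gene in kilobases, its RPKM and the fraction of its reads that map to more than 1 place. How reads were counted, on which annotation, and how shared reads were split was not given in the sources used here.

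Depth was recovered as the value at which RPKM times length of short genes (at most 0.6 kilobases, under 0.5 in that product) gave whole reads. Within 0.1 reads, 100% and 99.7% of these values were whole in B6 (weeks 4 and 7) and 100% and 97.9% in NOD (weeks 4 and 6.5). Single-place reads are reads times 1 minus the deposited fraction, which is rounded to the percent.

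Strains were compared by limma 3.58.1 in R 4.3.3. Values were log2(RPKM + 1), a gene entered if at least 2 libraries had RPKM of 1 or more, and strain was the only term. The variance prior had a trend, and two-sided p-values were adjusted by Benjamini and Hochberg over all genes tested, at 0.05. A pseudocount of 1 understates changes of low genes. There were 2 residual degrees of freedom, and 1 with age class as a block. The fit was tested on simulated data. Comparisons of 2 libraries had no test, and a ratio of reads was given with a 95% exact (Clopper-Pearson) interval. Alternatives were other pseudocounts and filters, median-ratio scaling, quantile normalization, single-place reads, genes under 10% shared reads, the age block and leaving out each library.

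Copies of the chromosome 7 array were matched by Entrez identifier. Windows of 32 bases (the read length in the names of the deposited files) were compared between transcripts of GENCODE vM21, 1 per gene, and promoters came from RefSeq GRCm38.p6. Neither is the mm9 build, so no coordinates were joined to the files. The settings tried on the array's other copies were added after seeing the data. Named with values were the genes called, the array, the 10 with the highest mean RPKM, those 2-fold apart in any comparison, those with 50% or more shared reads, and Trim12 and Trim16. Others named were chosen after their values were seen. The genes, lists and tests were chosen with earlier results of these data known, the differences of Trim12 and Trim16 among them.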

Additional observations from a re-analysis of the deposited data

How the results depend on the processing

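Depth limits genes under RPKM of 1, and 1 library per strain and age limits all comparisons. Trim16 was called higher and Trim12 lower in NOD under each setting tried, with these exceptions. With no filter on low values 0 Trim genes were higher (Trim16 at an adjusted p of 0.1025 by limma), and among genes under 10% shared reads 0 were lower, since Trim12 did not enter. The labels carry no replicate numbers, so the replicate block was age class, which does not pair animals: with it 2 Trim genes were higher and 3 lower, and 665 and 340 of all genes. Leaving out 1 library gave 1 to 6 Trim genes higher and 1 to 3 lower, and 264 to 2919 and 146 to 452 of all genes. All genes called higher and lower numbered 135 and 75 with no filter, 152 and 87 at RPKM of 5 or more in 2 libraries, and 121 and 70 among genes under 10% shared reads. Of comparisons of 2 libraries, median-ratio scaling gave 1 higher and 2 lower at the later age and 0 lower in B6 by age, and RPKM of 1 or more in either library gave 1 higher in NOD by age (Trim58). Single-place reads left too few of Trim34 to test.

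Signs turned only in differences that did not pass the test. On the log2 scale, Trim14 was at -0.064 after median-ratio scaling and -0.075 after quantile normalization, and Trim46 at -0.008 after the latter. With 1 library left out, the range was -0.301 to 0.091 for Trim24, -0.485 to 0.21 for Trim8, -0.152 to 0.117 for Trim56, -0.063 to 0.867 for Trim27, -0.177 to 0.591 for Trim35, -0.10 to 0.467 for Trim32, -0.317 to 0.375 for Trim14, -0.331 to 0.55 for Trim46 and -0.233 to 0.039 for Trim6. Signs turned without B6 week 4 (Trim8, Trim24 and Trim56), B6 week 7 (Trim14, Trim27, Trim32, Trim35 and Trim46), NOD week 4 (Trim46) and NOD week 6.5 (Trim6 and Trim56). The cause was not tested.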
